A study of Rattus norvegicus with 69 samples.

Results

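Whole testis RNA was compared with RNA of seminiferous tubules that had been dissected out of the testis, in order to describe the transcripts of the tissue that surrounds the tubules. The samples called whole testis were the 5 titled so, of 69 in all, and they were set against 49 tubule samples from 10 stage groups of the cycle through which the seminiferous epithelium passes. A tubule sample held tubules of 2 Sprague Dawley rats aged 55 to 60 days, 25 segments per rat, found by transillumination. Every stage group had 5 samples except IV-V, which had 4. The labels give no age for the whole testis rats and do not say whether a whole testis sample came from 1 animal or several. The samples titled IX-XI had source names that read IX-XII. Isolated cells were used only to describe levels: 4 samples of Sertoli cells at about 85% purity, 4 of round spermatids, 4 of pachytene spermatocytes, all from rats aged 55 to 60 days, and 3 of spermatogonia plus early spermatocytes, the last from rats aged 18 to 20 days, with germ cell purities of 85% to 95%. The labels name no mutation or treatment for any group.

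In the testis, germ cells develop inside the tubules beside Sertoli cells, and a wall of peritubular myoid cells and basement membrane encloses each tubule. The interstitium between the tubules holds Leydig cells, which make testosterone under the control of luteinizing hormone, resident macrophages, fibroblasts, blood and lymph vessels. Dissection strips much of this tissue from the tubules, while whole testis RNA contains both compartments. In such bulk samples, fewer cells of a type and less RNA per cell cannot be told apart.

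Each array had been scaled to the same trimmed mean signal, so values are relative to the RNA of that sample. Levels below are array signals of 1 probe set per gene, and the levels of different probe sets are not compared with each other. The median signal of an array was 40.9 to 44.4 in whole testis, against 39.0 to 49.5 in tubules. The ratio of the 3' to the 5' probe sets of Gapdh, a measure of RNA integrity, was 1.19 to 1.54 in whole testis and 0.897 to 2.05 in tubules. Bacterial control transcripts that are added to RNA before labelling set the groups apart: the thr control gave 982 to 5556 in whole testis, against at most 42.3 in tubules, and the trp control 2246 to 6853 in whole testis, against at most 25.8 in tubules. Among the isolated cells 1 Sertoli cell sample, replicate 2, also carried them, with 1920 for thr. Any difference in labelling that went with these controls and the difference between whole testis and tubules cannot be told apart.

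The 5 whole testis samples did not form 1 set. Across tested probe sets, replicates 1, 3 and 5 correlated with each other at r = 0.938 to 0.950 and replicates 2 and 4 at r = 0.953, whereas pairs across these sets had r = 0.915 to 0.931. Tubule samples of a stage group had r = 0.883 to 0.955, and probe sets are not independent replicates. The thr control was 4566, 4808 and 5556 in replicates 1, 3 and 5, and 982 and 1120 in replicates 2 and 4. Of the probe sets called higher in whole testis, 209 (40.2%) were higher in each of replicates 1, 3 and 5 than in replicates 2 and 4, against 18.8% of all tested probe sets. The grouping of these samples was seen in the data and is not in the labels. Counts of some lists and values of some genes are given with and without the samples. Other genes are given over all 5 samples only, and part of these lost their call with replicates 2 and 4 alone, as named at the end.

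A probe set was called when limma's adjusted p was under 0.05 and the change, on log2 of the signal plus 5.12, was at least 2-fold between whole testis and the mean of the 10 stage means. Of 22506 probe sets tested, 520 (2.31%) were higher in whole testis and 269 (1.2%) were lower. In 186 (0.826%) all 5 whole testis samples lay above all 49 tubule samples, and in 24 (0.107%) below all of them. At any size of change, 3424 probe sets passed the adjusted p on the higher side and 3913 on the lower side. With replicates 1, 3 and 5 alone 641 were higher and 740 lower, and with replicates 2 and 4 alone 331 were higher and 237 lower. The genes just inside the 2-fold limit were Gpx1, Rnaset2 and Scarb1, at 2.002-fold to 2.009-fold, and those just outside it were Samt3, Tekt5l1 and Lgals3, at 1.991-fold to 1.997-fold.

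Among genes with 1 probe set each, 274 of 12089 (2.27%) were higher and 105 (0.869%) lower, and 112 (0.926%) had all whole testis samples above all tubule samples. The median log2 change of all these genes was -0.01. An unadjusted p under 0.05 was reached by 5483 of the 12089 genes. Counts of list genes at that limit, given below, are to be read against this background. Both conditions, a call and no overlap, were met by 88 genes, of which 38 stood in 1 of 23 lists of cell type and pathway genes and 50 in none.

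**Figure D1:**
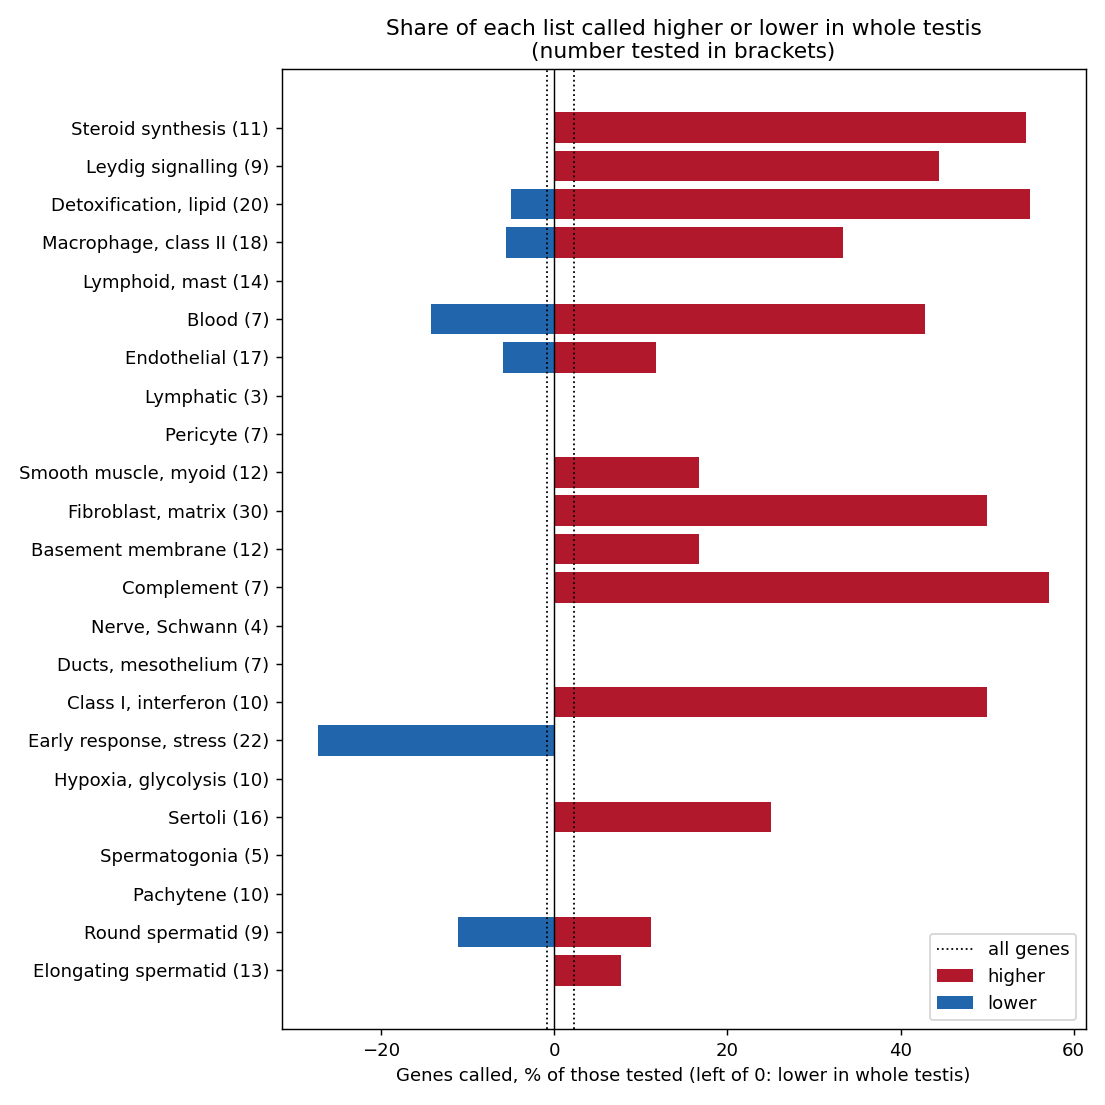
Share of the tested genes of each list that was called higher (right of 0) or lower (left of 0) in whole testis, in percent, with the number tested in brackets and dotted lines at the shares of all genes. Steroid synthesis, detoxification, matrix, complement and class I lists had 50% or more of their genes called higher, and the early response list had 6 of 22 called lower.

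Genes of steroid synthesis included the gene with the largest change, Cyp17a1. Of 11 tested, 6 were higher, none was lower, and 5 had no overlap with the tubule samples. Their median log2 change was 1.01, against -0.01 for all genes. Cyp17a1, which makes androgen precursors from progestogens, had signals of 563, 482, 608, 688 and 599 in whole testis replicates 1 to 5, and between 1.93 and 41.2 with a median of 5.67 in tubules. Every whole testis sample lay far above the highest tubule sample, and the log2 change was 5.52 ± 0.29 (SE), adjusted p = 8.76e-22. A probe set was tested when 3 or more samples exceeded 43.7. No tubule sample did so for Cyp17a1, which thus entered the test through whole testis alone. Hsd3b1, the enzyme that converts pregnenolone to progesterone, had 261, 365, 284, 261 and 299.9 in whole testis, and between 2.82 and 107 with a median of 6.48 in tubules (log2 change 4.50 ± 0.35 (SE), adjusted p = 4.09e-15). Hsd11b1, which interconverts active and inactive glucocorticoid, was at 260.2, 283, 313, 319 and 286 in whole testis, and between 5.03 and 32.9 with a median of 17.00 in tubules (log2 change 3.77 ± 0.21 (SE), adjusted p = 2.14e-20). These genes were even across the 5 whole testis samples, replicates 2 and 4 included.

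The genes of the earlier steps had smaller log2 changes. Star, which brings cholesterol into mitochondria, averaged 136 ± 27.02 in whole testis and 42.9 in tubules (SD, n = 5 for whole testis, here and below, with the tubule value the mean of 10 stage means), with a log2 change of 1.61 ± 0.18 (SE), adjusted p = 8.23e-10. Cyp11a1, the side-chain cleavage enzyme, averaged 209 ± 43.4 in whole testis and 85.1 in tubules, and Scarb1, a lipoprotein receptor, 101 ± 19.2 in whole testis and 51.3 in tubules (log2 changes 1.26, adjusted p = 1.43e-08, and 1.01, adjusted p = 0.00174). With replicates 2 and 4 alone 3 of the 11 genes were called, and with replicates 1, 3 and 5 alone 6. Cyp17a1 and Hsd11b1 were not tested with replicates 2 and 4 alone, which left fewer than 3 samples above 43.7. Tspo, a mitochondrial cholesterol-binding protein, passed the adjusted p but not the 2-fold limit, at 245 in whole testis and 151 in tubules.

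Hormone and receptor genes of Leydig cells had 4 of 9 higher and none lower, with a median log2 change of 0.82. Insl3, the Leydig cell peptide that acts in testis descent, had 1069, 509, 1060.0, 808 and 1033 in whole testis, and between 13.1 and 93.8 with a median of 54.97 in tubules. No sample of 1 group reached the other, although replicate 2 was the lowest of the whole testis samples by a wide margin (log2 change 4.02 ± 0.24 (SE), adjusted p = 3.82e-19). Pdgfra, a growth factor receptor of Leydig cell precursors and fibroblasts, averaged 141 ± 25.9 in whole testis and 14.1 in tubules (log2 change 3.01 ± 0.22 (SE), adjusted p = 3.79e-16). The growth factor gene Igf1 and the nuclear receptor gene Nr2f2 were also higher, at log2 changes of 1.47 and 1.04 (adjusted p = 2.94e-10 and 3.86e-06). Of 2 other Nr2f2 probe sets, 1 was also called higher and 1, at -0.75, was not called. Lhcgr, the receptor of luteinizing hormone, was at 144, 102, 136, 98.1 and 96.1 in whole testis, above every tubule sample (at most 89.9), and its log2 change of 0.82 ± 0.17 (SE), adjusted p = 1.65e-04 missed the 2-fold limit.

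**Figure D2:**
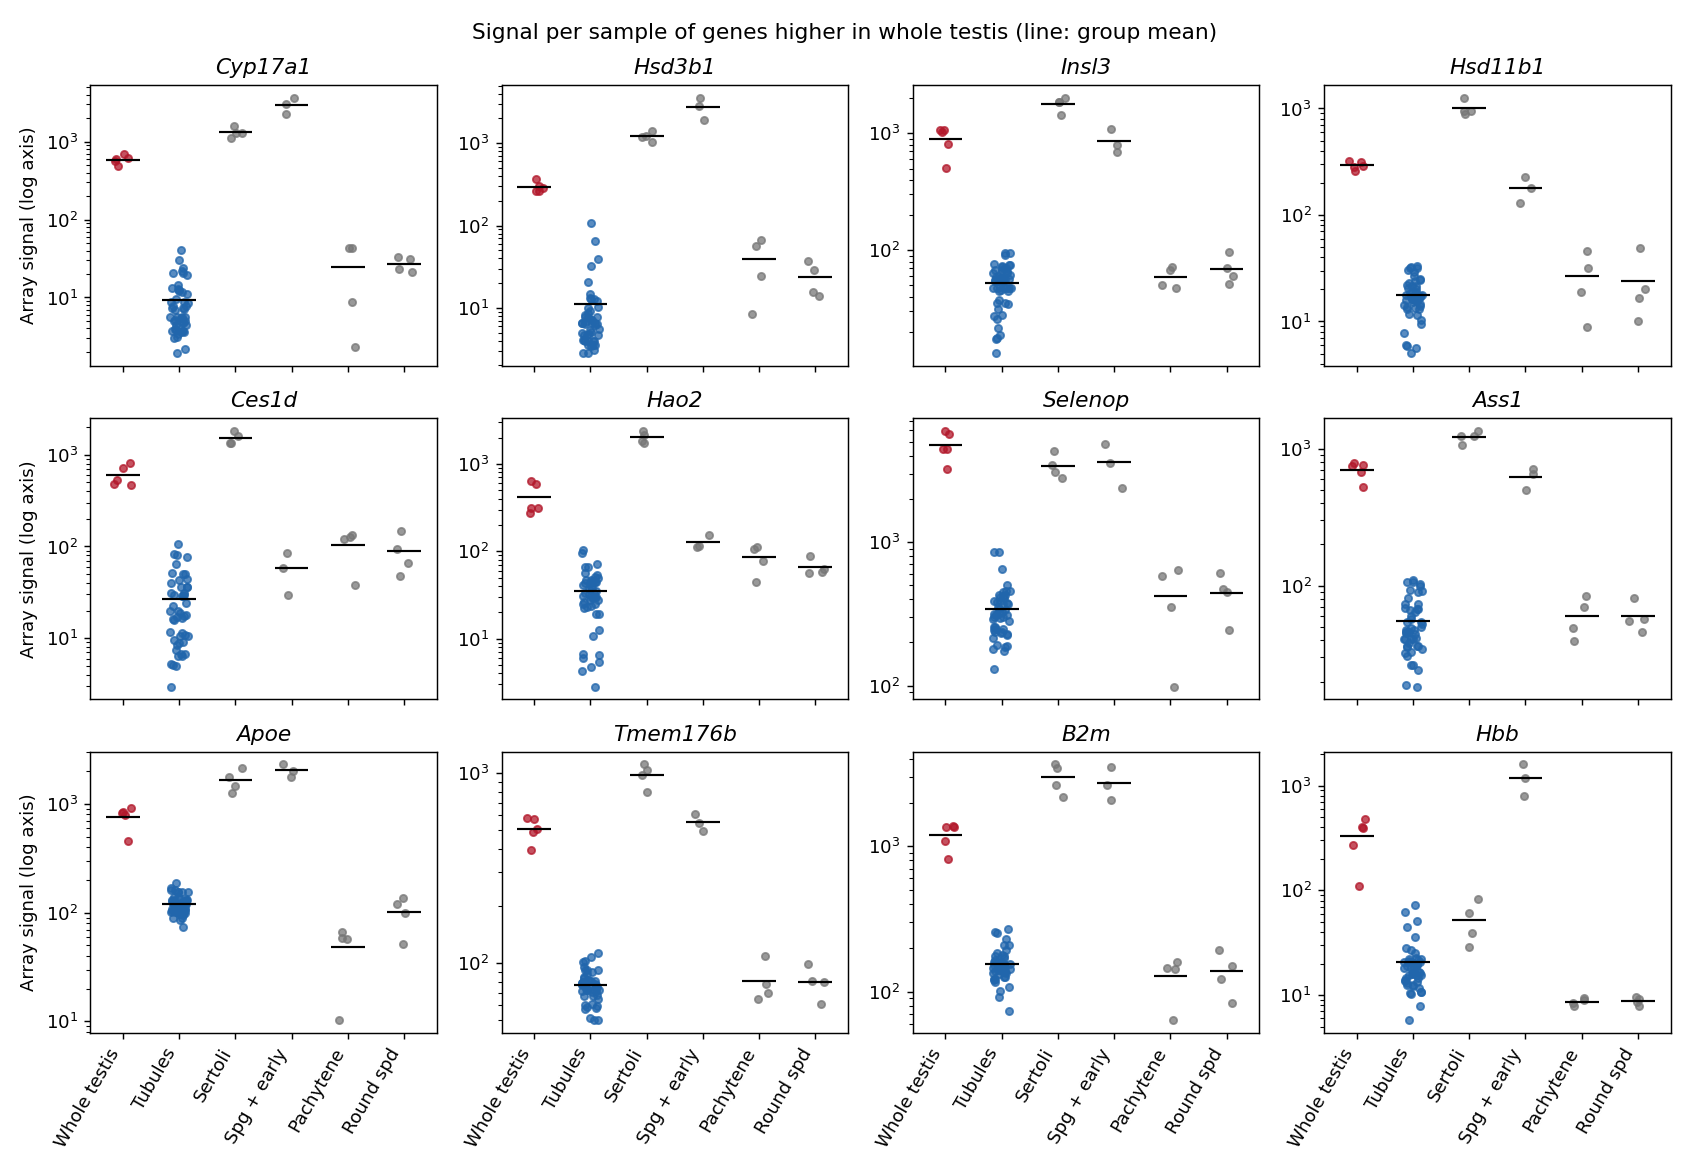
Array signal per sample on a log axis for 12 genes higher in whole testis, with whole testis left of tubules and the isolated cell groups after them (points are samples, lines are group means). In all 12 panels the 5 whole testis samples lie above the 49 tubule samples, and the steroid synthesis genes are also high in the Sertoli cell and the spermatogonia plus early spermatocyte samples.

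Among the isolated cells, the Sertoli cell samples and the spermatogonia plus early spermatocyte samples also carried the Leydig cell genes. Cyp17a1 averaged 1324 in the Sertoli cell samples and 2970.1 in spermatogonia plus early spermatocytes, against 588 in whole testis, but 24.3 in pachytene spermatocytes and 27.2 in round spermatids. Insl3 averaged 1793 in the Sertoli cell samples and 858 in spermatogonia plus early spermatocytes. Both preparations thus carried signal of Leydig cell genes above or near the level of whole testis. Of the probe sets higher in whole testis, 255 (49.04%) had their highest isolated level in the Sertoli cell samples, against 20.4% of all tested, and 176 (33.8%) in spermatogonia plus early spermatocytes, against 30.01%. A high level in the Sertoli cell samples is therefore given below as a level in that preparation, not as a level in Sertoli cells.

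Beyond the listed markers, the 20 genes with the largest changes among the 50 outside all lists ran over log2 changes of 1.74 to 3.86. Selenop, the plasma selenoprotein that carries selenium to the testis, had 5933, 3239, 4459, 4443 and 5623 in whole testis, and between 131 and 857 with a median of 313 in tubules. Its lowest whole testis sample lay well above the highest tubule sample (log2 change 3.86 ± 0.17 (SE), adjusted p = 1.47e-24). The whole testis mean also lay above that of every isolated group, of which the highest, spermatogonia plus early spermatocytes, averaged 3585, and Selenop shared this with Scaf1 and Ifi27l2b among the probe sets that were called and did not overlap. Ass1, an enzyme of arginine synthesis, had 751, 524, 758, 670.5 and 784 in whole testis, and between 18.4 and 110.2 with a median of 47.5 in tubules (log2 change 3.65 ± 0.16 (SE), adjusted p = 1.47e-24). Apoe, a lipid transport protein, was at 836, 454, 789.8, 914 and 818 in whole testis, and between 74.3 and 187 with a median of 119 in tubules, with a log2 change of 2.60 ± 0.11 (SE), adjusted p = 6.35e-25.

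Hao2, a peroxisomal oxidase of hydroxy acids, was at 271, 585, 315, 633 and 312 in whole testis, and between 2.82 and 104 with a median of 32.7 in tubules. Replicates 2 and 4 were the high ones here, the opposite of the matrix genes below, and the log2 change was 3.58 ± 0.38 (SE), adjusted p = 1.47e-10. The plasma protein gene Hp, whose product binds free hemoglobin, also had replicates 2 and 4 highest, with 246, 342, 177, 314 and 198 in whole testis, and was between 6.75 and 90.04 with a median of 27.95 in tubules (log2 change 3.08 ± 0.37 (SE), adjusted p = 3.68e-09). Both genes were highest among isolated cells in the Sertoli cell samples, at 2018 and 1246. Adh1c, an alcohol dehydrogenase, was even at 439.9, 396, 477, 447 and 405 in whole testis, and between 12.8 and 155 with a median of 51.2 in tubules (log2 change 3.17 ± 0.27 (SE), adjusted p = 1.98e-13). Pltp, a phospholipid transfer protein, averaged 95.9 ± 34.02 in whole testis and 6.83 in tubules (log2 change 3.09 ± 0.27 (SE), adjusted p = 3.12e-13).

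The membrane protein gene Tmem176b varied little within either group, at 576, 396, 582, 488 and 507 in whole testis, and between 50.3 and 113 with a median of 76.7 in tubules (log2 change 2.67 ± 0.12 (SE), adjusted p = 1.47e-24). Vcam1, an adhesion molecule for leukocytes, averaged 113 ± 10.8 in whole testis and 20.3 in tubules, and Svs5, named as a seminal vesicle secretory protein, 156 ± 21.9 in whole testis and 33.9 in tubules (log2 changes 2.32, adjusted p = 1.32e-09, and 2.12, adjusted p = 2.51e-09). The mitochondrial enzyme genes Echs1, of fatty acid oxidation, and Prdx3, a peroxidase, averaged 115 ± 13.4 and 136 ± 11.6 in whole testis, against 28.4 and 35.5 in tubules. Gsn, which severs actin, and the intermediate filament gene Vim, of mesenchymal and Sertoli cells, were at log2 changes of 1.97 and 1.87 (adjusted p = 7.39e-16 and 2.75e-14). Scaf1, Ifi27l2b, Basp1, Clic1, Arid5b and Igfbp2 completed the 20, at log2 changes of 2.49, 2.34, 1.96, 1.81, 1.77 and 1.74. In 9 of the 20, and in 32 of the 50, replicates 1, 3 and 5 lay above replicates 2 and 4. Of all probe sets called higher, 40.2% had this order. Of the 20, 13 had their highest isolated level in the Sertoli cell samples and 7 in spermatogonia plus early spermatocytes.

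Genes of detoxification and lipid handling had 11 of 20 higher and 1 lower, with a median log2 change of 1.08. Ces1d, a carboxylesterase that splits esters of lipids and drugs, had 526, 714, 471, 815 and 479 in whole testis, and between 2.97 and 106 with a median of 18.9 in tubules (log2 change 4.53 ± 0.35 (SE), adjusted p = 6.54e-15). Replicates 2 and 4 were its highest samples. Cd36, a fatty acid transporter, averaged 178 ± 20.1 in whole testis and 13.8 in tubules, and Fabp3, a fatty acid-binding protein, 577 ± 56.5 in whole testis and 139 in tubules (log2 changes 3.44, adjusted p = 1.06e-11, and 2.15, adjusted p = 8.63e-21). Among the genes of glutathione transfer, 5 were higher. Gsta1 averaged 1484 ± 131 in whole testis and 331 in tubules, and the log2 changes of the 5 were 2.18 for Gsta1, 1.52 for Gstm2, 1.40 for Gstm1, 1.19 for Mgst1 and 1.11 for Gsta4. Members of these families are alike in sequence, so probe sets may share signal between them. Cyp1b1, a cytochrome P450, was the steadiest, with 434, 423, 406, 389.6 and 435 in whole testis, and between 63.1 and 159 with a median of 94.3 in tubules (log2 change 2.10 ± 0.13 (SE), adjusted p = 2.54e-19). Sult1e1, which sulfates estrogen, was the member that was lower, at 12.6 in whole testis and 36.9 in tubules, both weak signals.

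Class I antigen presentation and interferon-responsive genes had 5 of 10 higher and none lower, with a median log2 change of 1.17. B2m, the light chain of class I molecules, had 1388, 819, 1359, 1084 and 1356 in whole testis, and between 73.8 and 269.6 with a median of 149 in tubules, with no overlap and a log2 change of 2.93 ± 0.14 (SE), adjusted p = 2.89e-23. Psmb9, a subunit of the immunoproteasome that cuts peptides for class I, averaged 80.6 ± 23.6 in whole testis and 6.10 in tubules (log2 change 2.97 ± 0.26 (SE), adjusted p = 5.91e-13). Ifitm3, an antiviral membrane protein, and the interferon-induced genes Ifi27 and Gbp2 were at log2 changes of 1.45, 1.44 and 1.45 (adjusted p = 3.46e-15, 2.03e-17 and 6.53e-05). In all 5 genes replicates 1, 3 and 5 lay above replicates 2 and 4. With replicates 2 and 4 alone 2 of the 10 genes were called, and with replicates 1, 3 and 5 alone 6. Psmb9 and Gbp2 did not pass the filter with replicates 2 and 4 alone and were not tested there. The promoter of B2m is shown because 6 of the 10 list genes with a window hold an interferon response element, read here as GAAA, any 2 bases and GAAA. Of all 33469 windows 3.92% hold it, but a list gene counted when any of its windows matched. The list was chosen as interferon-responsive, so the share among its genes says nothing about whole testis. Of these 6, B2m, Gbp2, Ifi27 and Ifitm3 were called higher, and Psmb8 and Oas1a, at log2 changes of 0.90 and -0.36, were not called. Windows are from RefSeq, assembly GRCr8, with 250 bases before and 50 after the gene start, searched on both strands, and the capitals mark the match. A match is a description of the letters and not of a bound site. The B2m window lies at chr3:129549080-129549379, plus strand.
B2m: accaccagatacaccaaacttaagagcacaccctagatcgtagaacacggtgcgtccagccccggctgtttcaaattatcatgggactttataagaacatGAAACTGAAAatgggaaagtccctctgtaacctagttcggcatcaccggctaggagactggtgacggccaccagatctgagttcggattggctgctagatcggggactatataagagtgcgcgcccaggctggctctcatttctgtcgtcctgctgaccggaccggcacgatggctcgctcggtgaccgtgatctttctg

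Complement genes had 4 of 7 higher and none lower, with a median log2 change of 1.48. C1r and C1s, the proteases that start the classical pathway, averaged 268 ± 88.6 and 278 ± 91.5 in whole testis, against 60.8 and 67.03 in tubules (log2 changes 2.01, adjusted p = 2.10e-13, and 1.95, adjusted p = 5.86e-15). Serping1, their inhibitor, had 227, 85.7, 227, 141 and 206 in whole testis, and between 5.78 and 75.8 with a median of 49.7 in tubules (log2 change 1.73 ± 0.22 (SE), adjusted p = 3.00e-08). C1r, C1s and Serping1 were higher in replicates 1, 3 and 5 than in replicates 2 and 4. Cfd, a protease of the alternative pathway, averaged 51.3 ± 10.5 in whole testis and 17.02 in tubules, and Clu, a secreted Sertoli cell chaperone also listed here, 3662 ± 926 in whole testis and 2878 in tubules, under the 2-fold limit.

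Macrophage and class II genes were mixed, with 6 of 18 higher, 1 lower and a median log2 change of 0.35. C1qa and C1qc, chains of the complement recognition protein that macrophages make, averaged 66.4 ± 16.8 and 53.1 ± 14.1 in whole testis, against 7.96 and 11.3 in tubules (log2 changes 2.56, adjusted p = 1.08e-09, and 1.94, adjusted p = 2.04e-07). Cd74, the invariant chain of class II molecules, and Lyz2, a lysozyme, were at log2 changes of 2.50 and 1.66 (adjusted p = 1.61e-07 and 3.51e-06). The class II chains disagreed. RT1-Db1 and RT1-Da were higher, at log2 changes of 2.32 and 1.27, and RT1-Ba was lower at -1.11 (adjusted p = 3.24e-04, 2.85e-10 and 0.00545). RT1-Ba had 3 other probe sets and none was called, and RT1 genes are a family of similar sequences, so these 3 values are uncertain. Mrc1, a scavenger receptor of tissue macrophages, was at 249, 264, 241, 290.5 and 249.7 in whole testis, above every tubule sample (at most 233), but at a log2 change of 0.79. The general macrophage markers Csf1r, Cd14 and Tyrobp averaged 66.7, 35.98 and 39.8 in whole testis, against 72.4, 39.00 and 54.5 in tubules, and were not called. The summed signal of the 25 measured macrophage and class II genes was 3361 to 3685 in whole testis and 1583 to 4992 in tubules, and it was 3709 to 4148 in round spermatids.

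Lymphoid and mast cell genes had none of 14 called in either direction by limma, with a median log2 change of -0.34. At an unadjusted p under 0.05 there were 4, against 5483 of all 12089 genes. Cd3e, a T cell receptor chain, averaged 35.6 in whole testis and 30.7 in tubules. Of 7 blood genes 3 were higher and 1 lower. Hbb, a hemoglobin chain, had 478, 273, 399.6, 110.3 and 391 in whole testis, and between 5.81 and 72.2 with a median of 18.2 in tubules (log2 change 3.67 ± 0.26 (SE), adjusted p = 1.87e-16), so that replicate 4 had the least. Pf4, a platelet chemokine, averaged 47.4 ± 11.9 in whole testis and 12.2 in tubules (log2 change 1.76 ± 0.31 (SE), adjusted p = 1.45e-05). Alas2, an erythroid enzyme of heme synthesis, averaged 329 in whole testis and 212 in tubules, a linear ratio of 1.55, with tubule stage means of 33.2 to 438, the highest in XIII-XIV, and 738 in the Sertoli cell samples. The hemoglobin chain gene Hba-a3 averaged 96.5 in whole testis and 99.1 in tubules, Slc4a1, the anion exchanger of red cells, 83.7 in whole testis and 96.7 in tubules, and Ppbp, a platelet chemokine, 62.1 in whole testis and 84.7 in tubules, and none of these was called. Alb, the serum albumin gene, was lower at weak signals, 16.5 in whole testis and 44.6 in tubules, and another Alb probe set was not called.

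Of 17 endothelial genes 2 were higher and 1 lower, against 2.27% and 0.869% of all genes, with a median log2 change of 0.17. None of 3 lymphatic or 7 pericyte genes was called (limma; 0 and 1 at an unadjusted p under 0.05). At the shares of all genes, lists this short would seldom hold a call, so nothing is read from this. Cldn5, the tight junction protein of endothelium, was at 159.5, 69.9, 108, 116 and 139 in whole testis, and between 5.96 and 77.1 with a median of 33.8 in tubules, so that replicate 2 overlapped (log2 change 1.75 ± 0.27 (SE), adjusted p = 1.01e-06). Cldn5 also averaged 475 in the Sertoli cell samples. Eng, a receptor of endothelial cells, averaged 74.1 ± 18.7 in whole testis and 24.4 in tubules (log2 change 1.64 ± 0.32 (SE), adjusted p = 7.84e-05), while Icam2, an endothelial adhesion molecule, was lower at 18.9 in whole testis against 51.6 in tubules. The defining genes Vwf and Tie1 averaged 29.5 and 31.02 in whole testis and 31.2 and 35.9 in tubules, below the median of the table, and were not called.

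Fibroblast and matrix genes were higher in number, 15 of 30 with none lower, 9 without overlap and a median log2 change of 0.98. Mgp, an inhibitor of calcification in vessels, had 773, 606, 895, 780.2 and 853 in whole testis, and between 87.3 and 297 with a median of 133 in tubules (log2 change 2.44 ± 0.13 (SE), adjusted p = 7.46e-21). Igfbp7, a secreted binding protein of vessels and stroma, averaged 845 ± 138 in whole testis and 194 in tubules (log2 change 2.09 ± 0.09 (SE), adjusted p = 1.11e-25). Dcn, a small proteoglycan that binds collagen, had 239.8, 96.8, 257, 134 and 252 in whole testis, and between 17.3 and 81.03 with a median of 49.7 in tubules (log2 change 1.79 ± 0.21 (SE), adjusted p = 3.62e-09). Here the whole testis samples fell into the sets seen above, with replicates 2 and 4 lowest.

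The split was wide for Col1a1 and narrower for other fibrillar collagens. Col1a1, a chain of type I collagen, had 287, 82.4, 318, 71.5 and 322 in whole testis, and between 43.6 and 114 with a median of 72.7 in tubules, so that replicates 2 and 4 lay within the tubule range. Its log2 change of 1.23 ± 0.20 (SE), adjusted p = 3.26e-06 came to 0.06 (adjusted p = 0.899) with replicates 2 and 4 alone and to 2.00 with replicates 1, 3 and 5. Another Col1a1 probe set was at 3.54 (adjusted p = 9.00e-14), so the size of the change is uncertain. Col1a2 and Col3a1, chains of types I and III, were at 1.13 and 1.38, and at 0.55 (adjusted p = 0.207) and 0.95 (adjusted p = 0.000217) with replicates 2 and 4 alone. Of the 15 higher genes, 10 had replicates 1, 3 and 5 above replicates 2 and 4, and with replicates 2 and 4 alone 9 of the 30 were called. Bgn, another proteoglycan, ran the other way in 1 sample, with 43.8, 110.0, 130.2, 137 and 95.1 in whole testis. The other genes called were Igfbp3, Dpt, Col6a2, Sparc, Fbn1, Cxcl12, Igfbp6 and Ogn, at log2 changes of 1.10 for Ogn to 2.21 for Igfbp3. Another probe set each of Col6a2, Fbn1, Cxcl12 and Ogn was not called.

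Genes of the tubule wall were tested too. Of 12 smooth muscle and myoid genes 2 were higher, Tpm2, a tropomyosin, and Cnn1, a calponin, and none was lower, with a median log2 change of 0.53 and 11 genes at an unadjusted p under 0.05. The summed signal of the 14 measured smooth muscle and myoid genes was 1693 to 2382 in whole testis and 1075 to 1690 in tubules, without overlap. Tpm2 averaged 111 ± 35.1 in whole testis and 30.97 in tubules and Cnn1 41.2 ± 9.69 in whole testis and 19.3 in tubules (log2 changes 1.76, adjusted p = 2.23e-06, and 1.02, adjusted p = 0.00496), and another Tpm2 probe set was not called. Acta2, the smooth muscle actin, averaged 335 in whole testis and 244 in tubules, under the limit. Of 12 basement membrane genes 2 were higher, the laminin chains Lamb1 and Lama2. Lamb1 had 86.2, 10.2, 71.9, 8.72 and 92.2 in whole testis, and between 2.65 and 38.1 with a median of 7.41 in tubules, so its call (log2 change 1.64 ± 0.31 (SE), adjusted p = 5.52e-05) rested on replicates 1, 3 and 5. With replicates 2 and 4 alone none of either list was called, but Cnn1 and Lamb1 did not pass the filter there and were not tested. Nerve and Schwann cell genes (4 tested) and genes of ducts and mesothelium (7 tested) had no call in limma, with 2 and 3 at an unadjusted p under 0.05.

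**Figure D3:**
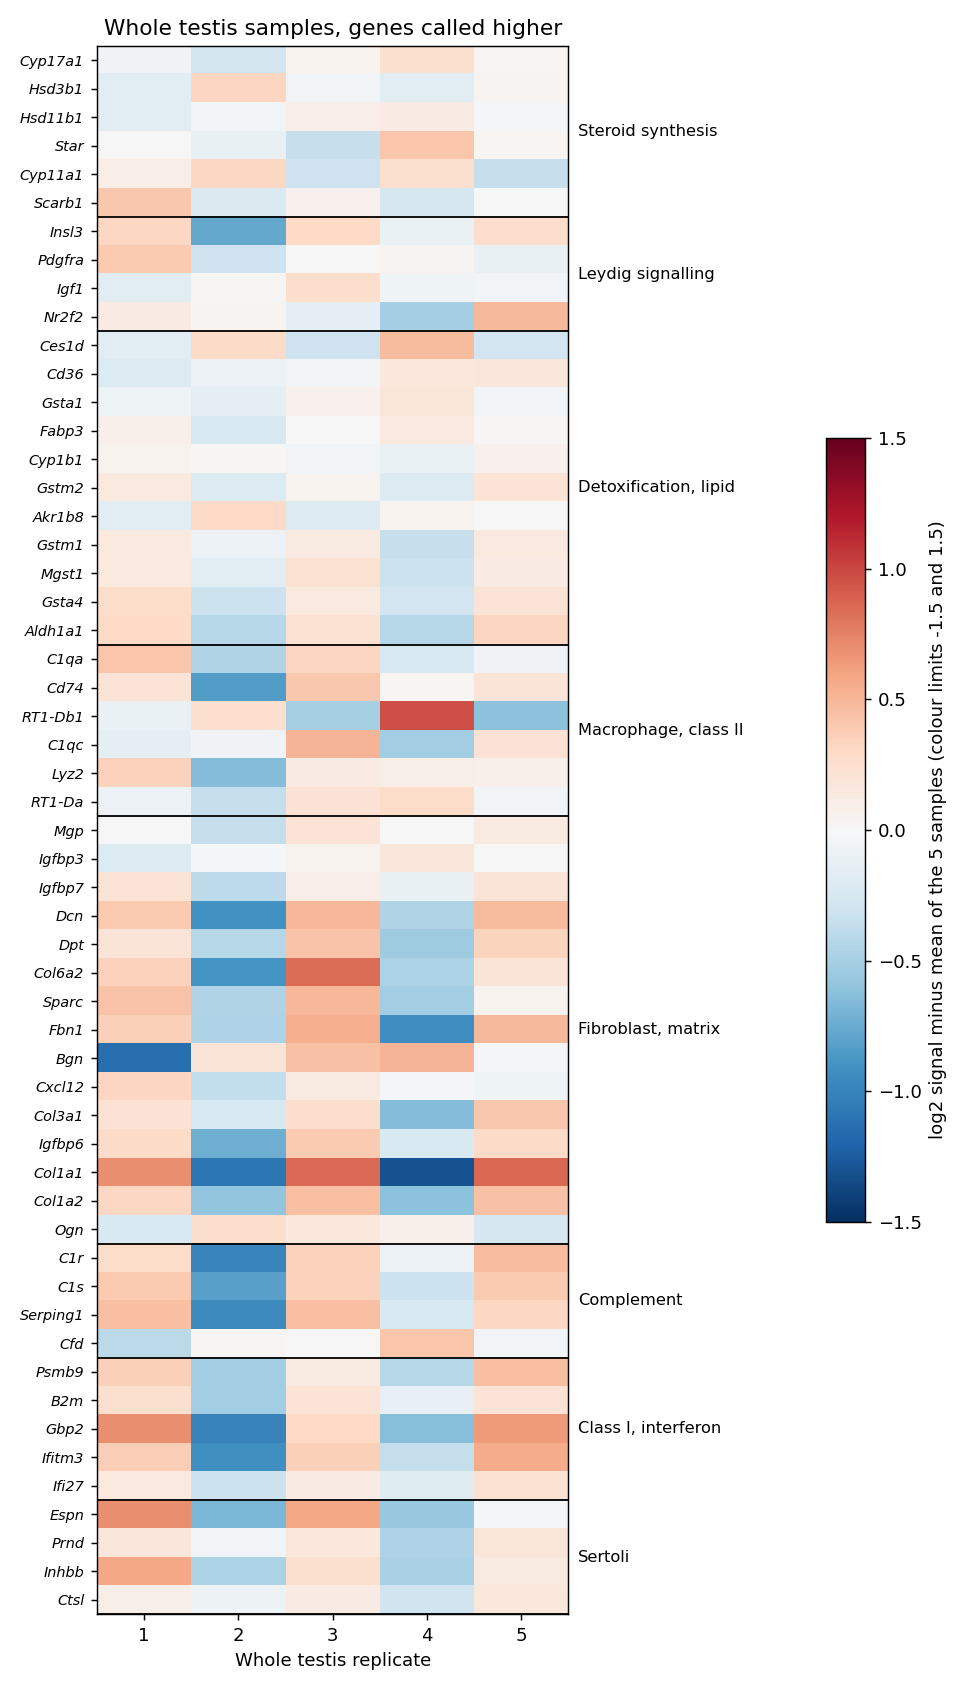
The log2 signal of each whole testis sample minus the mean of the 5, for the genes of 8 lists called higher in whole testis (rows, ordered by change within a list), with colour limits at -1.5 and 1.5. Replicates 2 and 4 are pale or mixed for steroid synthesis genes and low for most matrix, complement, class I and Sertoli genes.

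Sertoli cell genes had 4 of 16 higher and none lower, with a median log2 change of 0.36. Espn, an actin-bundling protein of Sertoli cell junctions, had 794, 304, 729.6, 330.3 and 478 in whole testis, and between 16.8 and 226 with a median of 78.03 in tubules (log2 change 2.64 ± 0.28 (SE), adjusted p = 1.09e-10), again with replicates 2 and 4 low. Inhbb, the inhibin beta B chain, averaged 96.9 ± 30.7 in whole testis and 47.01 in tubules and lost its call with replicates 2 and 4 alone (log2 change 0.73, adjusted p = 0.223). Shbg, the androgen-binding protein, had 647, 253, 579.9, 272 and 623 in whole testis and 306 on average in tubules, and Wt1, a Sertoli cell transcription factor, averaged 199 in whole testis and 135 in tubules, both under the limit. Among germ cell lists, none of 5 spermatogonial and 10 pachytene genes was called (limma; 1 and 4 at an unadjusted p under 0.05), and 1 of 9 round spermatid genes was higher, 1 lower, and 1 of 13 elongating spermatid genes higher. Acr, the acrosin gene of the acrosome, was the lower one, but its whole testis signals were 123, 844, 157, 713 and 286, with replicates 2, 4 and 5 within the tubule range of 195 to 1342. Its log2 change was -1.21 ± 0.22 (SE), adjusted p = 2.39e-05 over all samples and 0.05 with replicates 2 and 4 alone.

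For genes that change along the cycle, the log2 and the linear comparison gave different answers. Whole testis holds all stages, and the mean of log2 stage levels lies below the log2 of their mean, the more so the wider the range. Prnd, a prion-like gene of Sertoli cells, had a mean of 646 ± 112 in whole testis and 576 in tubules, a linear ratio of 1.12, and yet a log2 change of 2.32 ± 0.26 (SE), adjusted p = 8.80e-10. Its tubule samples ran from 1.24 to 2088. Likewise Spam1, the sperm hyaluronidase gene, had 919.8 in whole testis and 901 in tubules with a log2 change of 1.48, and Ctsl, a Sertoli cell protease, 801 in whole testis and 711 in tubules with 1.12, while another Ctsl probe set was not called. Tnp2, a transition protein of spermatid chromatin, was at 8542 in whole testis and 5971 in tubules, a linear ratio of 1.43. Of the 520 higher probe sets, 367 were also at least 2-fold on the ratio of linear means and 153 were not, and in 88 the whole testis mean lay below the highest stage mean. Of 53 whose stage means spanned over 8-fold, 1 was 2-fold on the linear scale, against 150 of 167 whose stage means spanned under 2-fold. For Ces1d, Selenop and Ass1 the linear ratio (22.4, 13.98 and 12.7) was near the fold on the log2 scale (23.1, 14.5 and 12.6). For Cyp17a1 it was 64.3, against 45.9 on the log2 scale, over tubule signals not shown to lie above background, and for Scarb1 it was 1.96, against 2.01.

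**Figure D4:**
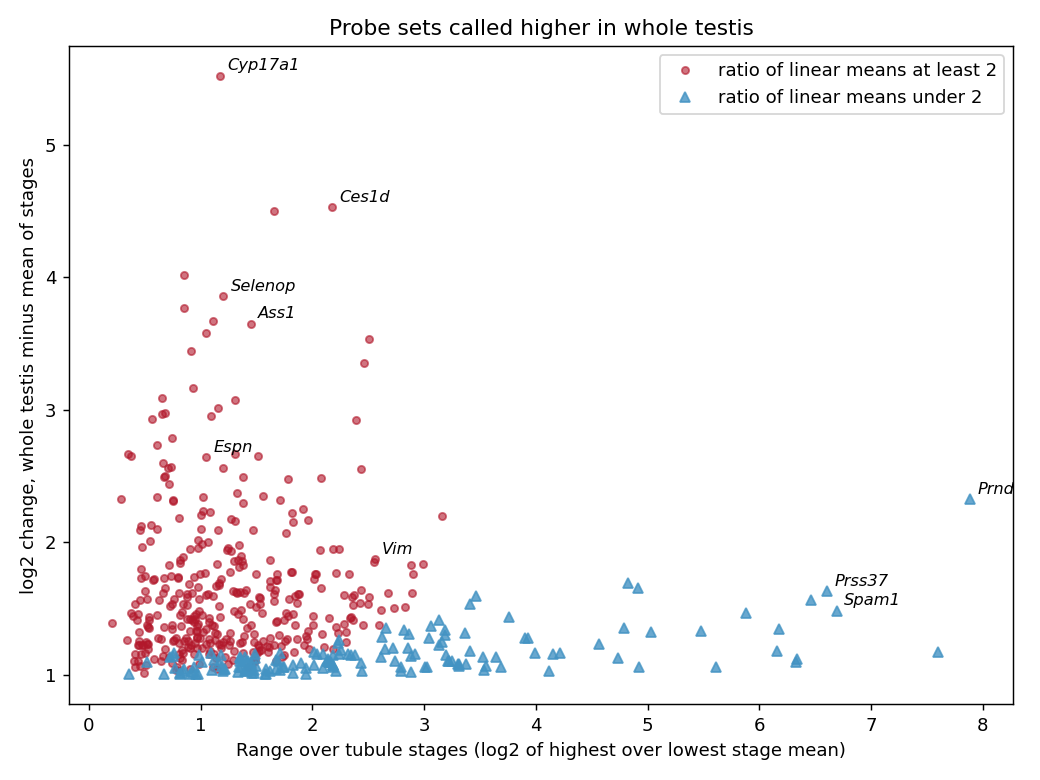
Each point is 1 of the 520 probe sets called higher in whole testis, with the range of its tubule stage means (log2 of the highest over the lowest, constant added) on the horizontal axis and its log2 change on the vertical axis. Red circles were at least 2-fold on the ratio of linear means and blue triangles were not, and 1 of the 53 with a range over 3 on this log2 axis was a circle.

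Of 147 probe sets that were called higher without overlap, 9 had their highest isolated level in pachytene spermatocytes or round spermatids. Of all tested probe sets, 21.7% were highest in pachytene spermatocytes and 27.8% in round spermatids. The 9 held 2 of the chromatin remodelling gene Baz1a, with 485 and 302 on average in whole testis, against 97.8 and 61.8 in tubules. The other Baz1a probe set, the one with the highest signal, was at 991 in whole testis and 919 in tubules and was not called. Ncor1, Tiparp, Smurf2 and Eprs1, named after their values were seen, likewise had a called probe set beside a brighter one that was not called. The probe sets of these genes thus disagreed.

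The genes lower in whole testis were mostly weak. Of the 269 lower probe sets, 237 averaged under 100 in tubules and 235 averaged under 43.7, the median of the table, in whole testis, and 9 were called with a pseudocount at that median. All whole testis samples lay below every stage mean in 137 of the 269, and in 5.02% of all tested probe sets, from which nothing is read because the call itself favours this. Cxcl1, a chemokine for neutrophils, fell the most, with 13.3, 1.97, 4.21, 2.14 and 2.13 in whole testis, and between 29.2 and 246 with a median of 99.8 in tubules (log2 change -3.45 ± 0.20 (SE), adjusted p = 1.11e-19). No whole testis sample reached the lowest tubule sample. Fos, a subunit of the AP-1 transcription factor made within minutes of a stimulus, had 1.47, 6.91, 1.94, 2.08 and 14.7 in whole testis, and between 35.2 and 157 with a median of 76.1 in tubules (log2 change -3.11 ± 0.19 (SE), adjusted p = 7.84e-19), while a second, weak Fos probe set averaged 22.9 in whole testis and 18.7 in tubules and was not called.

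Early response and stress genes had 6 of 22 lower and none higher, with a median log2 change of -0.35, against 0.869% of all genes lower. Besides Fos these were Fosb, Egr1, Jun, Ier3 and Nr4a1. Egr1, a zinc finger factor of the same early response, had 66.6, 26.3, 55.2, 25.3 and 60.2 in whole testis, and between 72.00 and 302 with a median of 132 in tubules (log2 change -1.56 ± 0.15 (SE), adjusted p = 8.47e-12). Jun, the partner of Fos, had 35.1, 70.5, 64.9, 46.4 and 62.8 in whole testis, and between 77.00 and 219.7 with a median of 135 in tubules (log2 change -1.26 ± 0.13 (SE), adjusted p = 5.65e-11), and 2 weaker Jun probe sets were not called. Fosb, Ier3 and Nr4a1 were at log2 changes of -1.74, -1.16 and -1.10 (adjusted p = 6.56e-06, 2.15e-06 and 4.35e-06). Nfkbiz, a regulator of NF-kappaB target genes outside the list, had 2.39, 4.09, 12.8, 25.6 and 21.9 in whole testis, and between 7.03 and 114 with a median of 56.03 in tubules (log2 change -1.93 ± 0.25 (SE), adjusted p = 4.29e-08), and another Nfkbiz probe set, at -0.68 (adjusted p = 0.0766), was not called. The heat shock genes Hspa1a and Dnajb1 averaged 79.2 and 2341 in whole testis, against 122 and 2973 in tubules, and stayed under the 2-fold limit, as did Zfp36 at 69.7 in whole testis against 118 in tubules. With replicates 1, 3 and 5 alone 6 list genes were lower, and with replicates 2 and 4 alone 5.

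In the isolated cells these genes differed widely between preparations. Fos averaged 1218 in the Sertoli cell samples and 1669.9 in spermatogonia plus early spermatocytes, and Cxcl1 3135 in the Sertoli cell samples and 1989.7 in spermatogonia plus early spermatocytes. Pachytene spermatocytes and round spermatids were at 44.9 and 40.1 for Fos, below the tubule mean of 81.1 and above whole testis. None of 10 hypoxia and glycolysis genes was called (limma, 7 at an unadjusted p under 0.05). The other largest falls were Lgals2, Epha3, Nrxn2, C5l1, Has2, Opn1sw and Batf2, at log2 changes of -1.97 for Lgals2 to -1.45 for Batf2. Each averaged under 100 in both groups, and 2 other probe sets of Epha3 were not called.

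The promoters of Cxcl1 and Egr1 are shown because each holds a motif of a factor known for such early responses. The motif GGAATTTCC, an NF-kappaB site, stands in the windows of Cxcl1 and Nfkbiz, which are outside the early response list. It stands in 0 of the 17 genes of that list with a window and in 0.332% of all windows. Only this exact sequence was searched, so other forms of an NF-kappaB site were not counted. The CArG box, bound by serum response factor, stands in 4 of these 17 genes (Egr1, Egr2, Klf6 and Zfp36) and in 1.64% of all windows. Of these 4, Egr1 was called lower. Here too a gene counted when any of its windows matched. The list was chosen as early response genes, so its share with a CArG box says nothing about whole testis. Capitals mark the matches, 1 in Cxcl1 (chr14:17479272-17479571, minus strand) and 2 in Egr1 (chr18:26736828-26737127, plus strand), in the same RefSeq windows of GRCr8.
Cxcl1: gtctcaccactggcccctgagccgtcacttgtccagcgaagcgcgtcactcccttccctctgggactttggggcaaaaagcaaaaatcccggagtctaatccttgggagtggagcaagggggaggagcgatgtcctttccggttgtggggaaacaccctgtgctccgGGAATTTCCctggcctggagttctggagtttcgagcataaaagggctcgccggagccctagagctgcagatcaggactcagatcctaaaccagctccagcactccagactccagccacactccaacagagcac
Egr1: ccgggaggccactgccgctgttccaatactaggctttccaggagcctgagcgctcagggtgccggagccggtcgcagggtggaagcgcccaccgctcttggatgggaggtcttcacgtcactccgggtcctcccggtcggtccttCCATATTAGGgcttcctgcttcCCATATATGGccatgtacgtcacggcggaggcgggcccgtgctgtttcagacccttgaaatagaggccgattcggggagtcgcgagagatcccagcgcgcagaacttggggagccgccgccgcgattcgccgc

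**Figure D5:**
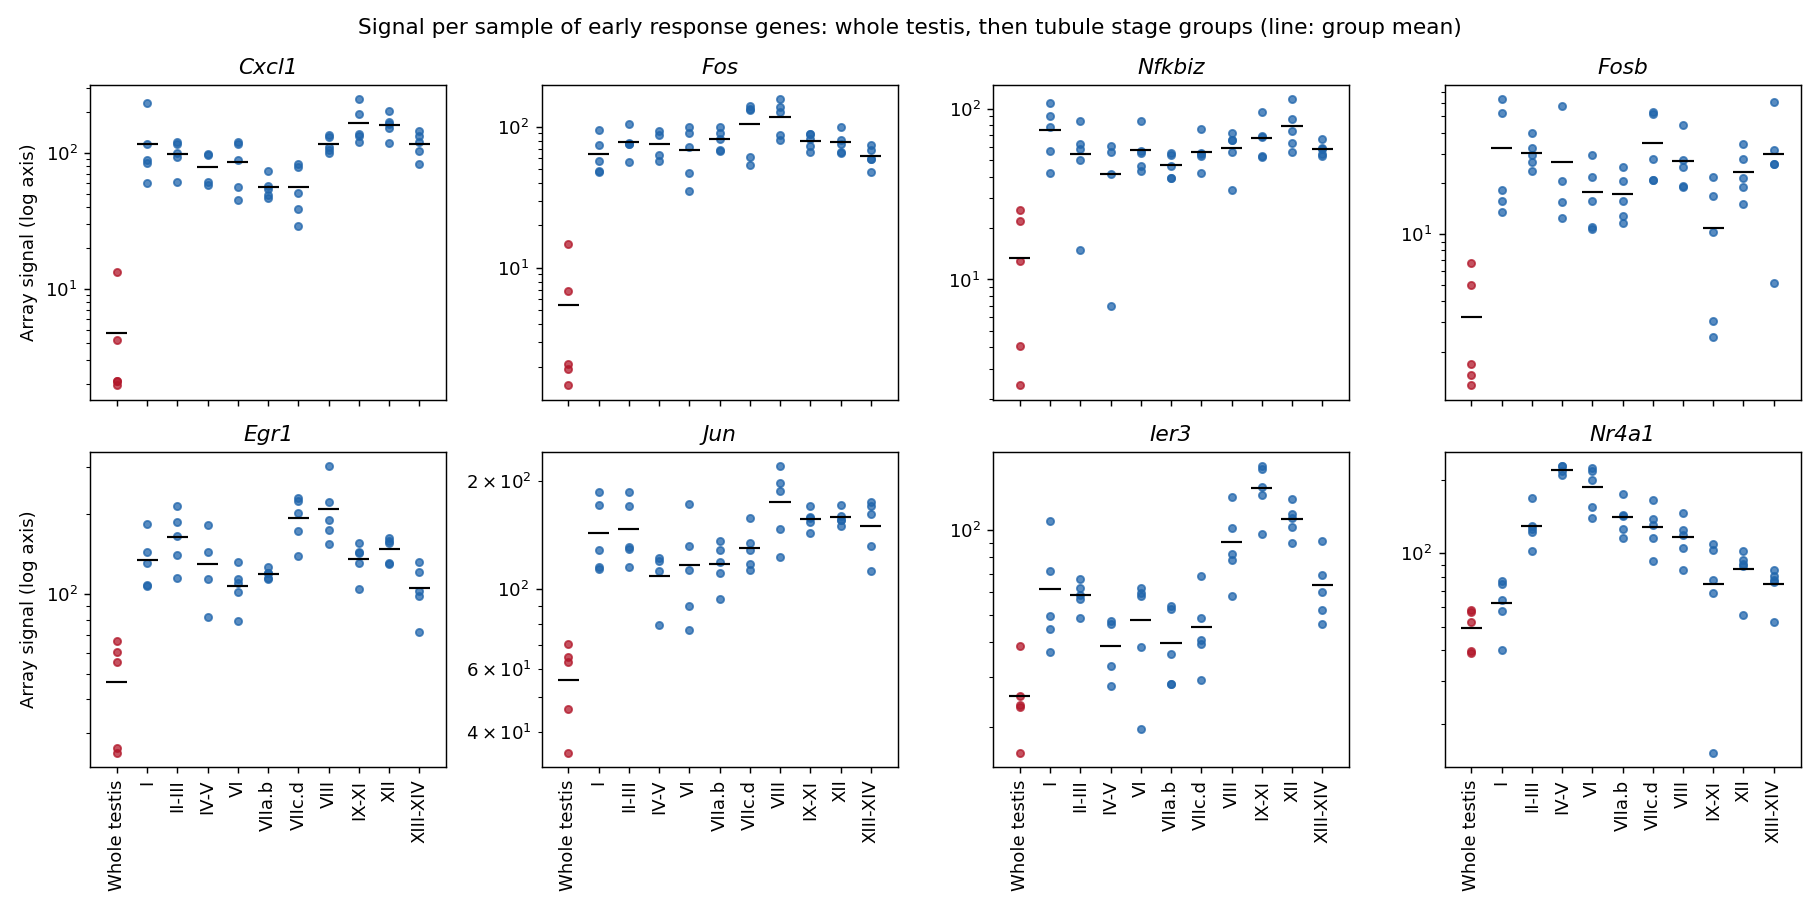
Array signal per sample on a log axis for 8 early response genes, with whole testis at the left and the 10 tubule stage groups after it in the order of the cycle (points are samples, lines are group means). For Cxcl1, Fos, Egr1 and Jun every whole testis sample lies below every tubule sample, and for Nr4a1 the whole testis samples overlap with several stage groups.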

How the data were processed

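RNA of 5 whole testis and 49 tubule samples, with 15 samples of isolated cells for description, was measured on Affymetrix rat arrays, 1 per sample. Per the labels' protocols, biotinylated cRNA was made from 6 µg of total RNA, and the submitters' processing notes name MAS5. The deposited values are linear signal intensity per probe set, which the authors had scaled: with 2% of probe sets removed at each end, every array averaged 100.0. No detection calls are used here, so a low signal is not shown to lie above background, and the number of arrays limits precision. Of 31099 probe sets 57 controls were left out. Of the rest, 20826 had 1 gene symbol, 436 several and 9780 none in the platform's table. Symbols were updated through RefSeq (GRCr8), in 20758 cases.

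A pseudocount of 5.12, the level below which 10% of table values lie, was added before log2, and limma 3.58.1 was run in R 4.3.3 (trended variance, 11 groups, whole testis minus the mean of the 10 stage means, two-sided, Benjamini-Hochberg over all tested probe sets). A probe set was tested when 3 or more of the 54 samples exceeded 43.7, the median signal. Cyp17a1, Hsd11b1, Pltp, Psmb9, C1qa, Scaf1, Arid5b, Gbp2, Cfd and Lamb1 had no tubule sample above it. These genes were tested through whole testis alone, so their adjusted p-values are descriptive. The same holds for C1qc, Pf4 and Cnn1, which had fewer than 3 tubule samples above 43.7 and needed whole testis to be tested. Other named genes with few tubule samples above it were not counted. Fold changes on this scale understate those of weak genes. The fit was also run on simulated data with the same spread in every group and shifts only in probe sets bright in many samples. That run cannot speak to genes weak in tubules or to the split of the whole testis samples. A gene was represented by its brightest probe set. Named were the 15 largest rises and the 20 largest outside all lists (called, no overlap), the 12 largest falls below every stage mean, list members called, and up to 4 others per list, picked after their values were seen. The samples, lists and comparison were chosen with earlier results of these data known. Nothing says that replicates came from separate animals for whole testis. The p-values rest on a variance pooled within the 11 groups, to which the 49 tubule samples contribute more than the 5 of whole testis. A gene on which the whole testis samples split, such as Lamb1 or Col1a1, can therefore have a small p-value. Alternatives were the pseudocount, the filter, normalization, averaging, variance model, threshold, replicate block, and samples or stages left out. The use of replicates 1, 3 and 5 or 2 and 4 of whole testis alone was added after seeing the data. With replicates 2 and 4 alone, a probe set with no tubule sample above 43.7 could not be tested. The labels do not say whether replicate numbers pair whole testis with tubules, so the main fit used no pairing. Figures were drawn with matplotlib 3.10.9.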

Additional observations from a re-analysis of the deposited data

Results flagged for a closer look

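Within the 5 whole testis samples, 5 of 118 sets of values had 1 sample far from the others by Dixon's test, which chance gives in about 1 of 20 sets. Apoe in replicate 2 was at 454, the lowest of the group. Cxcl1 in replicate 1 was at 13.3, the highest. Epha3 in replicate 4 was at 6.33, the lowest, and Nrxn2 in replicate 3 at 19.0, the highest. Tspo in replicate 1 was at 282, the highest.

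The bacterial control transcripts, outside the probe sets tested, gave a signal in whole testis above that of tubules: the thr control was at 982 in the lowest whole testis array, against 42.3 in the highest tubule array. The Sertoli cell sample that also carried them (thr 1920) differed from the other Sertoli cell samples by a median log2 of 0.08 over the probe sets called higher in whole testis, -0.09 over those called lower and -0.02 over all tested. For the other 3 Sertoli cell samples these medians ran from -0.04 to 0.04, from -0.04 to 0.20 and from -0.00 to 0.05. The part of labelling in the comparison of whole testis with tubules was not tested.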

How the results depend on the processing

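Of 520 higher and 269 lower probe sets, and 186 without overlap, 575 were lower with a pseudocount of 1, and with a pseudocount at the table's median 143 were higher and 9 lower. With the filter passed in at least 27 samples 232 were higher and 121 lower, over fewer probe sets tested. Arrays centred on their medians gave 656 higher and 179 lower, so that 78.6% of calls were higher against 65.9%, and moved the median log2 change of all probe sets to 0.03, against -0.05. At 4-fold, 71 were higher and 7 lower. With whole testis replicates 1, 3 and 5 alone 740 were lower and 516 had no overlap, and with replicates 2 and 4 alone 331 were higher and 326 had no overlap. Leaving out each sample in turn gave 502 to 570 higher, 261 to 428 lower and 186 to 228 without overlap, and the lower count was 428 without whole testis replicate 2 and 424 without replicate 4. The cause of these shifts was not tested.

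Of 106 called genes named, 67 kept their call with replicates 2 and 4 alone, 25 lost it and 1 changed direction, among 93 tested. Eng, Scarb1, Fbn1, Lama2, Igfbp6, Tpm2, RT1-Ba, Icam2, Tnp2 and Ifitm3 lost it. So did Col1a1, Col1a2, Col3a1, Col6a2, Inhbb, Nr2f2, Nr4a1, Mgst1, Gsta4, Aldh1a1, Ctsl, Alas2, Alb, Batf2 and C5l1. With a pseudocount at the median 44 of the 106 lost their call. With the filter passed in at least 27 samples only 65 of the 106 were tested, and these kept their call. Acr came to 0.0531, Shbg to -0.0933 and Clu to -0.0875 (log2) with replicates 2 and 4 alone, and Acrv1 to -0.244 on the ratio of linear means. A replicate block, with whole testis and tubules sharing replicate numbers, gave 521 higher and 276 lower. The 49 pairs of equal number had correlations of -0.06 to 0.08 between their deviations. In 16 of 49 the whole testis sample correlated best with its own number among the 4 or 5 samples of a stage. Such values cannot show whether equal numbers mark shared animals or runs, and this was not tested.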
